A study of Arabidopsis thaliana with 12 samples.

Results

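Whether loss of MED25 changes the size of the response to low oxygen was examined as the interaction of genotype and treatment in rosettes of Arabidopsis thaliana. For each gene this is the log2 change between hypoxia and control in med25-1 plants minus the same change in wild-type plants, so that a negative value means a smaller rise or a larger fall in med25-1. All 12 RNA-sequencing libraries of the series enter it, 3 biological replicates in each of 4 groups: med25-1 under hypoxia, med25-1 under control conditions, wild type under hypoxia and wild type under control conditions. All plants were 3 weeks old, and hypoxia was 1% oxygen for 3 h. Both lines grew on sucrose-containing plates, and these data hold no measure of sugar within the plants. The mutant is represented by a single line, med25-1, and where its lesion lies was not given in the sources. Of 33208 features with deposited counts, 18212 had enough reads to be tested.

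MED25 is a subunit of the tail of Mediator, the complex that carries signals from DNA-bound transcription factors to RNA polymerase II. In Arabidopsis it is known as a partner of factors in jasmonate, drought and abscisic acid responses, and it is also called PFT1 for its role in flowering. The response to low oxygen itself is driven by group VII ethylene response factors, which are degraded through the N-degron pathway while oxygen is present and become stable when it runs out. Their targets include the fermentation enzymes, non-symbiotic haemoglobin and the plant cysteine oxidases that feed back on the same factors.

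Gene reads totalled between 7170796 and 20501572 per library, and introns took 1.59% to 2.53% of them. The shallowest library, med25-1 hypoxia replicate 3, had 8.97% of its reads in its 20 most abundant genes, against 14.8% and 14.0% in med25-1 hypoxia replicates 1 and 2. The median over tested genes of the SD of log2 CPM (read counts scaled to a common library size) between replicates was 0.335 in med25-1 hypoxia, 0.181 in med25-1 control, 0.200 in wild-type hypoxia and 0.140 in wild-type control libraries. The 28 photosynthesis genes that mark leaf tissue summed to between 78930 and 160200 CPM, with med25-1 hypoxia replicate 3 lowest, while the root markers summed to at most 0.434 CPM and the seed markers to at most 0.160 CPM. Flower markers summed to at most 7.76 CPM. These are bulk samples, in which fewer cells of a type and less RNA per cell cannot be told apart.

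No gene had a response that differed between the lines past an adjusted p of 0.05 in edgeR's quasi-likelihood test (0% of 18212 genes). The smallest adjusted p was 0.155, for AT5G41900. At an unadjusted p under 0.05, 910 genes passed, 5.0% of those tested, the share that this threshold passes on average where no response differs. Bins of 0.05 across all p-values held between 831 and 1021 genes each. Of the 910 genes, 519 had a smaller or more negative response in med25-1 (2.85% of tested genes) and 391 a larger or less negative one (2.15%). DESeq2 called 16 genes (0.0879% of those it tested), 15 of them negative and 1 positive, with 974 at an unadjusted p under 0.05. Limma's voom with sample weights called 0 genes, with 2087 at an unadjusted p under 0.05 and a smallest adjusted p of 0.0619.

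The width of the intervals shows what these 12 libraries could resolve. The median gene had a 95% interval of 0.65 on either side of its interaction log2, and for 10375 genes (57.0%) the whole interval lay within a 2-fold difference between the responses. For 20 genes the whole unadjusted interval lay beyond a 2-fold difference. Of the 1593 genes that passed the edgeR test for hypoxia in either line, 1528 had the same sign of response in both, and 747 had an interaction interval within 2-fold. The 549 genes called in both lines had the same sign in all 549 cases. Across the 18212 genes the responses of the lines, which share no library but share one normalisation and fit, had a Pearson r of 0.66. Across the 61 tested core hypoxia genes it was 0.97, a measure that does not register a shift or scaling common to the genes. Of these 61 genes, 14 had an interaction interval within 2-fold.

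**Figure D1:**
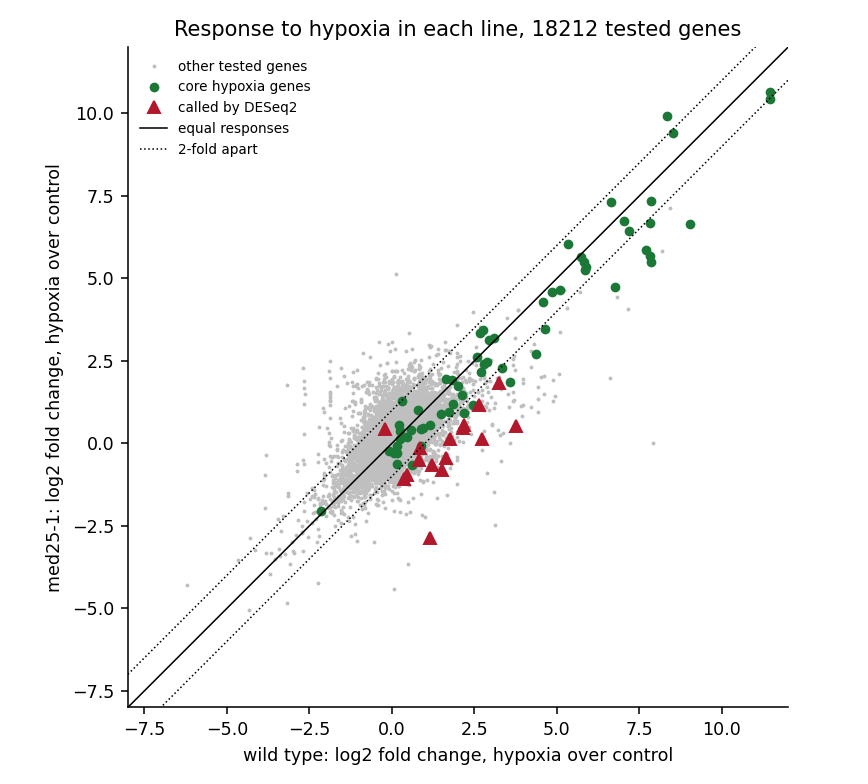
Log2 fold change between hypoxia and control in med25-1 (vertical axis) against wild type (horizontal axis), one point per tested gene. Of the core hypoxia genes (61, circles), 45 lie below the line of equal responses. The fitted size of the largest responses rests on control groups with few or no reads. Of the 16 genes called by DESeq2 (triangles), 15 lie below the same line.

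MED25 itself, the targeted gene, had 14.2, 15.3 and 21.5 CPM in med25-1 hypoxia libraries and 22.8, 20.7 and 31.2 CPM in med25-1 control libraries. In wild type it had 26.2, 38.0 and 33.8 CPM under hypoxia and 34.6, 32.7 and 34.9 CPM under control conditions. Within each condition every med25-1 library was below every wild-type library, and transcripts were still counted in the mutant. Introns took on average 9.01% of MED25 reads in med25-1 libraries (7.36% to 12.1%, n = 6) and 1.15% in wild-type libraries (0.457% to 1.88%, n = 6). The interaction of MED25 was -0.50 (SE 0.28, 95% interval -1.11 to 0.10, adjusted p = 0.929 by edgeR). Of the 13 tested Mediator subunits, 0 passed the unadjusted threshold in either direction. Of all tested genes 5.0% passed, a share from which 0 of 13 cannot be told apart. The median interaction of the 13 was 0.03, and MED18, the member with the smallest p, had 0.46 (-0.03 to 0.95).

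The core of the hypoxia response was present in both lines. Of 61 tested core hypoxia genes, 42 rose in med25-1 (against 1.88% of all tested genes) and 47 rose in wild type (against 3.05%), and 1 fell in each line (against 3.40% and 3.43%). The median response was 2.41 in med25-1 and 2.76 in wild type on the log2 scale. The interaction was negative for 45 of the 61 genes, against 8906 of all 18212 tested genes. The list's median was -0.45, against 0.01 over all tested genes. It was -0.33 with genes that had no reads in a group set at their floor of 3 counts over the group. At an unadjusted p under 0.05, 11 members had a smaller and 1 a larger response in med25-1. These were 18.0% and 1.64% of the list, against 2.85% and 2.15% of all tested genes.

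Among the fermentation genes, ADH1, which encodes alcohol dehydrogenase, had 167, 150 and 104 CPM in med25-1 hypoxia libraries and 3.35, 2.58 and 4.30 CPM in med25-1 control libraries. Wild-type libraries had 127, 245 and 154 CPM of ADH1 under hypoxia and 2.23, 2.28 and 4.09 CPM under control conditions. The hypoxia groups of the lines overlapped, and so did the control groups; the interaction was -0.55 (-1.52 to 0.42, adjusted p = 0.947 by edgeR). PDC1, a pyruvate decarboxylase at the entry to ethanol fermentation, had 304, 289 and 50 reads in med25-1 hypoxia libraries and 5, 2 and 0 reads in med25-1 control libraries, against 327, 809 and 428 reads in wild-type hypoxia and 1, 0 and 2 reads in wild-type control libraries. With so few control reads no fold change of PDC1 is given. Its paralog PDC2 had 131, 208 and 123 CPM in med25-1 hypoxia and 76.2, 69.8 and 101 CPM in med25-1 control libraries, against 180, 432 and 315 CPM in wild-type hypoxia and 81.2, 65.7 and 55.2 CPM in wild-type control libraries. Both the hypoxia groups and the control groups of PDC2 overlapped between the lines, and 2 of the 3 wild-type hypoxia libraries were above every med25-1 library. Its response was 0.90 in med25-1 and 2.2 in wild type, an interaction of -1.29 (-2.22 to -0.37, unadjusted p = 0.0101, adjusted p = 0.929 by edgeR).

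The sucrose synthases, which feed sucrose into glycolysis, went different ways in their point estimates. SUS1 had 78.8, 133 and 154 CPM in med25-1 hypoxia and 10.2, 19.2 and 26.3 CPM in med25-1 control libraries, against 162, 322 and 287 CPM in wild-type hypoxia and 13.4, 11.6 and 12.5 CPM in wild-type control libraries. All 3 wild-type hypoxia libraries were above all 3 med25-1 hypoxia libraries, while the control groups overlapped. Its interaction was -1.65 (-2.71 to -0.59, unadjusted p = 0.00528, adjusted p = 0.929 by edgeR), with responses of 2.71 in med25-1 and 4.36 in wild type. SUS4 was low, with 11, 21 and 5 reads in med25-1 hypoxia and 1, 3 and 0 reads in med25-1 control libraries, against 11, 19 and 24 reads in wild-type hypoxia and 3, 2 and 4 reads in wild-type control libraries, and its interval ran from -1.28 to 2.62. Over the 38 tested glycolysis and fermentation genes the median interaction was -0.02, with 3 members below and 1 above zero at the unadjusted threshold. These were 7.89% and 2.63% of the list, against 2.85% and 2.15% of all tested genes.

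HB1, the non-symbiotic haemoglobin that removes nitric oxide, had 700, 520 and 497 CPM in med25-1 hypoxia and 4.51, 4.08 and 2.35 CPM in med25-1 control libraries, against 414, 383 and 356 CPM in wild-type hypoxia and 3.34, 4.38 and 3.77 CPM in wild-type control libraries. The 3 med25-1 hypoxia libraries were above the 3 wild-type ones, and the interaction was 0.65 (-0.04 to 1.34, adjusted p = 0.929 by edgeR). LBD41, a transcriptional regulator among the standard hypoxia markers, had 337, 412 and 336 CPM in med25-1 hypoxia and 335, 519 and 431 CPM in wild-type hypoxia libraries. Its control libraries held 8.67, 5.44 and 7.50 CPM in med25-1 and 9.51, 8.49 and 6.48 CPM in wild type, so both pairs of groups overlapped. The interval of its interaction, -0.74 to 0.59, lay within 2-fold on both sides of an estimate of -0.07.

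Genes of the oxygen-sensing branch differed in how well their interaction was resolved. RAP2.12, a group VII factor made constitutively, had 134, 150 and 153 CPM in med25-1 hypoxia and 134, 136 and 154 CPM in med25-1 control libraries, against 143, 171 and 168 CPM in wild-type hypoxia and 163, 143 and 139 CPM in wild-type control libraries. All 4 groups overlapped, and the interaction was -0.07 (-0.46 to 0.31). RAP2.2 had an interaction of -0.12 (-0.83 to 0.60) and RAP2.3 one of -0.48 (-1.23 to 0.28), both group VII factors. The inducible factor HRE1 had -0.76 (-1.91 to 0.38). HRE2, the other inducible factor, had 51, 53 and 13 reads in med25-1 hypoxia libraries and 2 in all over the med25-1 control libraries, against 84, 62 and 115 reads in wild-type hypoxia libraries and 1 in all over the wild-type controls.

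The trihelix factor HRA1, a repressor of RAP2.12, had an interaction of -0.28 (-1.28 to 0.72). PCO1 and PCO2 encode cysteine oxidases that mark group VII factors for degradation. PCO1 had 107, 106 and 91.5 CPM in med25-1 hypoxia libraries and 129, 143 and 134 CPM in wild-type hypoxia libraries, groups that did not overlap. Its control libraries held 3, 0 and 2 reads in med25-1 and 6, 5 and 7 reads in wild type, and on these few reads rests the only larger response among core genes at the unadjusted threshold, 1.60 (0.49 to 2.71, unadjusted p = 0.00963, adjusted p = 0.929 by edgeR). PCO2 had 25.0, 18.3 and 13.3 CPM in med25-1 hypoxia libraries, below the 47.6, 51.3 and 47.1 CPM in wild-type hypoxia libraries, and an interaction of -0.76 (-2.10 to 0.58). Over the 18 tested oxygen-sensing genes the median interaction was -0.10, with 0 members below and 1 above zero at the unadjusted threshold. That 1 member was 5.56% of the list, against 2.15% of all tested genes above zero.

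**Figure D2:**
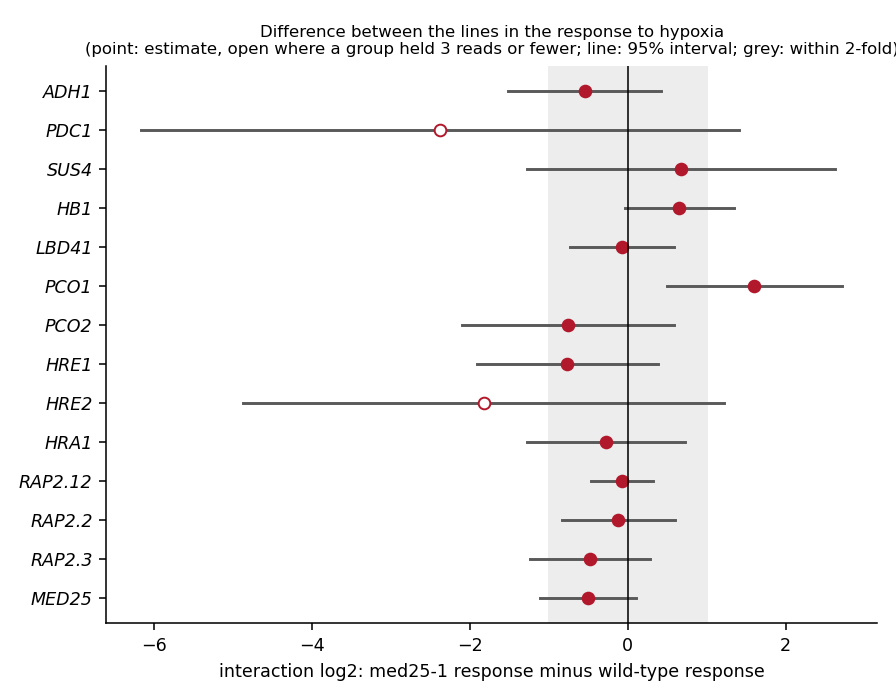
Interaction log2 (med25-1 response minus wild-type response) with its 95% interval for 14 genes of the hypoxia pathway and MED25, with a grey band for differences within 2-fold. Intervals of LBD41, RAP2.12 and RAP2.2 stay inside the band, while those of the genes with few control reads, such as HRE2, reach far outside it; open points mark genes with 3 reads or fewer in a group.

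Other core members were below zero at the unadjusted threshold. RBOHD, the NADPH oxidase that makes superoxide at the plasma membrane, had 70.4, 101 and 111 CPM in med25-1 hypoxia and 31.6, 49.5 and 45.6 CPM in med25-1 control libraries, against 73.6, 160 and 118 CPM in wild-type hypoxia and 22.1, 20.5 and 21.4 CPM in wild-type control libraries. Its hypoxia groups overlapped and its control groups did not, the med25-1 controls being higher, and the interaction was -1.30 (-2.11 to -0.49, unadjusted p = 0.00440). AT1G19530, the core gene with the smallest p, likewise had 6.54, 11.8 and 14.8 CPM in med25-1 hypoxia against 12.4, 13.3 and 13.4 CPM in wild-type hypoxia libraries, and 3.29, 2.58 and 3.2 CPM in med25-1 control against 1.04, 1.14 and 1.06 CPM in wild-type control libraries, an interaction of -1.74 (-2.56 to -0.91, unadjusted p = 0.000607, adjusted p = 0.845 by edgeR). For both genes the lines overlapped under hypoxia and did not overlap under control conditions.

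In CML38, a calmodulin-like calcium sensor, the lines overlapped under control conditions and not under hypoxia. CML38 had 153, 112 and 75.0 CPM in med25-1 hypoxia and 12.1, 7.07 and 11.3 CPM in med25-1 control libraries, against 196, 183 and 188 CPM in wild-type hypoxia and 8.84, 7.35 and 6.70 CPM in wild-type control libraries, an interaction of -1.16 (-1.93 to -0.39). AT5G65207, which the annotation gives as an uncharacterized protein, had 245, 212 and 203 CPM in med25-1 hypoxia libraries, below the 390, 391 and 430 CPM in wild-type hypoxia libraries, and -1.06 (-1.67 to -0.44). The remaining negative members at the unadjusted threshold, PP2-A13, AT1G26270, AT2G15880, CYP707A3 and UKL3, had interactions of -1.25 to -0.61.

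Among 34 tested genes induced by abscisic acid, cold or osmotic stress, the median interaction was -0.74, against 0.01 over all tested genes. The list of these genes, like the others, was chosen with earlier results of these data known. Its shares are therefore descriptions and not a test. At an unadjusted p under 0.05, 15 (44.1%) had a smaller response in med25-1 and 0 a larger one. Over all tested genes these shares were 2.85% and 2.15%. Under hypoxia 2 of the 34 rose in med25-1 (against 1.88% of all tested genes) and 15 rose in wild type (against 3.05%), with a median response of 0.55 in med25-1 and 1.04 in wild type. The list's median lay between -0.80 and -0.51 when each library was left out in turn, and it was -0.76 without med25-1 hypoxia replicate 3. The interval lay within 2-fold for 4 members. The list's median level, as log2 CPM centred on each gene's mean, was -0.34, -0.14 and 0.23 in med25-1 control libraries. Wild-type control libraries were lower, at -0.61, -0.55 and -0.72. Under hypoxia the lines overlapped, at -0.0041, 0.42 and 0.295 in med25-1 and 0.43, 0.31 and 0.38 in wild type.

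KIN1 encodes a small cold- and abscisic acid-induced protein. It had 2.07, 3.82 and 1.32 CPM in med25-1 hypoxia and 0.636, 0.816 and 3.65 CPM in med25-1 control libraries, against 65.5, 42.0 and 45.5 CPM in wild-type hypoxia and 4.76, 4.64 and 2.18 CPM in wild-type control libraries. The med25-1 groups overlapped each other, while every wild-type hypoxia library was far above every other library. Its response was 0.53 in med25-1 and 3.75 in wild type, an interaction of -3.22 (-4.91 to -1.52, unadjusted p = 0.00136, adjusted p = 0.845 by edgeR), which was -1.95 at its smallest with a library left out. COR15A, a chloroplast protein that protects membranes during freezing, had 68.7, 107 and 18.2 CPM in med25-1 hypoxia and 27.1, 36.4 and 68.3 CPM in med25-1 control libraries, against 304, 225 and 238 CPM in wild-type hypoxia and 35.5, 35.5 and 23.2 CPM in wild-type control libraries. Again the med25-1 groups overlapped and the wild-type groups did not, with an interaction of -2.47 (-3.98 to -0.95, unadjusted p = 0.00398). KIN1 and its neighbour KIN2 are near-identical, so their reads may be split unevenly, and KIN2 had -1.40 (-2.48 to -0.31).

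RD29A, a hydrophilic protein used as a marker of drought and cold, had 127, 202 and 122 CPM in med25-1 hypoxia and 29.1, 82.8 and 102 CPM in med25-1 control libraries, against 303, 375 and 334 CPM in wild-type hypoxia and 30.8, 48.9 and 38.7 CPM in wild-type control libraries. All wild-type hypoxia libraries were above all med25-1 hypoxia libraries, and the interaction was -2.02 (-3.16 to -0.89, unadjusted p = 0.00209). RD22, a dehydration-induced protein, had -1.47 (-2.48 to -0.47), GOLS3, a galactinol synthase that makes protective sugars, -2.48 (-4.19 to -0.78), and COR47, a dehydrin, -0.82 (-1.44 to -0.20). P5CS1, the enzyme that commits glutamate to proline, had 46.7, 51.8 and 51.8 CPM in med25-1 hypoxia and 42.9, 54.8 and 103 CPM in med25-1 control libraries, against 174, 97.3 and 143 CPM in wild-type hypoxia and 55.9, 56.9 and 57.6 CPM in wild-type control libraries. Its interaction was -1.70 (-2.57 to -0.83, unadjusted p = 0.00107), and med25-1 control replicate 3 stood at about the level of the lowest wild-type hypoxia library.

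The factors upstream of the cold genes had a different shape. CBF3, an activator that binds the C-repeat, had 6.41, 8.23 and 4.35 CPM in med25-1 hypoxia against 6.23, 7.29 and 7.27 CPM in wild-type hypoxia libraries, groups that overlapped, and 2.54, 3.53 and 3.25 CPM in med25-1 control against 1.11, 1.05 and 1.28 CPM in wild-type control libraries, groups that did not. Its interaction of -1.53 (-2.29 to -0.77, unadjusted p = 0.000900, the smallest of the list, adjusted p = 0.845 by edgeR) and that of CBF1, -1.23 (-1.98 to -0.48), thus went with higher control levels in med25-1, whereas those of KIN1, COR15A and RD29A went with lower hypoxia levels. ABF4, an activator of the abscisic acid response, had -0.47 (-0.90 to -0.03).

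Promoter sequences are shown for the 4 members with the smallest interaction p whose promoter held either core motif. All 4 genes rose under hypoxia in wild type and none of them did so past the threshold in med25-1. Choosing by a small interaction p favours such a pattern. They are the 250 bases before the annotated start, 5′ to 3′ on the gene's strand, from the RefSeq TAIR10.1 assembly, whose gene coordinates were the same as in the deposited table for these genes. Capitals mark the C-repeat core CCGAC and the abscisic acid response core ACGTG on either strand.
KIN1 (chr5:5209467-5209716, plus strand): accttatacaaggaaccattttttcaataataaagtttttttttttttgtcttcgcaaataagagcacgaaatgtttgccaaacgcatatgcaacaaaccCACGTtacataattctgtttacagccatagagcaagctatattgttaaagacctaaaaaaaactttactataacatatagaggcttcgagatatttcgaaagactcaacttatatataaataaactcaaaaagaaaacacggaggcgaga
RD29A (chr5:21240467-21240716, plus strand): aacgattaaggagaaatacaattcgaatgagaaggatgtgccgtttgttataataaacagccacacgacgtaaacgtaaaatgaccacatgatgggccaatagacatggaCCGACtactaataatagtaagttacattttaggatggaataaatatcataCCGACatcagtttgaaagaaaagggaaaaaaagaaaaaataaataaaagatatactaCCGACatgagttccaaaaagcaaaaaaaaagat
COR15A (chr2:17712331-17712580, minus strand): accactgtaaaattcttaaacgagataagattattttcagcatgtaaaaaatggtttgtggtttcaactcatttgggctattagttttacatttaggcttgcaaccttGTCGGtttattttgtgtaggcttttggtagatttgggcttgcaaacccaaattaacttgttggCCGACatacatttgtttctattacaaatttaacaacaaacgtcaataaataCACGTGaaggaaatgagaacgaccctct
RD22 (chr5:8916857-8917106, minus strand): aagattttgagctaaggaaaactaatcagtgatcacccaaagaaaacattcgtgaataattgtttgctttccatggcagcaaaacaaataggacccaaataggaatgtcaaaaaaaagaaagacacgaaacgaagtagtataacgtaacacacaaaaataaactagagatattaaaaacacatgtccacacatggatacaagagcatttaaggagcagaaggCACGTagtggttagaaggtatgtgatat

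RD29A held 3 copies of the C-repeat core, COR15A held 2, and KIN1 and RD22 held none in this window. KIN1 and RD22 each held 1 copy of the abscisic acid response core, and COR15A held it on both strands within 1 G-box, CACGTG. Over the 33 list members whose window was read, 17 (51.5%) held ACGTG and 8 (24.2%) held CCGAC, against 23.2% and 13.1% of the windows of 18175 tested genes. These shares were not particular to the list. Of 61 core hypoxia genes, 36.1% held ACGTG and 26.2% held CCGAC, and of the 12 endoplasmic reticulum chaperones, whose interactions were all positive, 9 held ACGTG, 6 the G-box and 2 CCGAC. Of the 16 genes called by DESeq2, 7 held ACGTG, and 1 held CCGAC. The G-box overlaps ACGTG and stood in 4 of the 33 windows, against 7.38% of all. The W-box core TTGAC stood in 12 of the 33, against 44.7% of all, and GCCGCC in 1, against 2.04%. The heat shock element stood in 1 of the 33, against 0.402% of all. A match of letters is a description of the sequence and not a bound site.

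Among jasmonate genes, 6 of 27 tested members (22.2%) were below and 1 (3.70%) above zero at the unadjusted threshold. Over all tested genes these shares were 2.85% and 2.15%. The median interaction of the list was -0.51. JAZ2, a repressor that jasmonate removes, had 77.8, 79.6 and 76.2 CPM in med25-1 hypoxia and 51.6, 44.2 and 95.4 CPM in med25-1 control libraries, against 107, 153 and 157 CPM in wild-type hypoxia and 58.8, 48.6 and 46.2 CPM in wild-type control libraries, an interaction of -1.16 (-1.93 to -0.38, unadjusted p = 0.00693). The biosynthesis genes OPR3, AOC1 and AOC2 had interactions of -1.18, -1.65 and -1.20, and JMT, which makes methyl jasmonate, had -1.68. In AOC1 the med25-1 control libraries held 67.1, 30.4 and 138 CPM, and replicate 3 was also the highest of its group for JAZ2, OPR3 and AOC2. Without med25-1 control replicate 3 the median of the list was -0.14, and its part in the -0.51 was not tested further. MYC4, an activator of jasmonate genes, had the larger response, 0.58 (0.06 to 1.10).

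In the branch where jasmonate and ethylene act together, 3 of 8 genes had enough reads. ORA59, the integrating factor of that branch, had 5, 13 and 0 reads in med25-1 hypoxia and 29, 15 and 64 reads in med25-1 control libraries, against 50, 127 and 108 reads in wild-type hypoxia and 68, 37 and 50 reads in wild-type control libraries. The med25-1 hypoxia libraries were below all others, and the interaction was -3.24 (-5.08 to -1.40, unadjusted p = 0.00237, adjusted p = 0.863 by edgeR). All 3 interactions of this branch were negative, with a median of -3.24, which is the value of ORA59. The median was -1.99 when the gene without reads in more than 1 group was left out. In the ethylene list 1 of 19 tested genes passed the unadjusted threshold (5.26%, against 5.0% of all tested genes), and the median was 0.04. That gene was ERF2, an activator that binds the GCC-box. ERF2 had 27.1, 21.5 and 26.5 CPM in med25-1 hypoxia and 25.4, 31.0 and 45.6 CPM in med25-1 control libraries, against 21.1, 35.1 and 17.4 CPM in wild-type hypoxia and 10.4, 7.27 and 6.01 CPM in wild-type control libraries. Wild-type control libraries were below all others, and the interaction was -2.09 (-2.98 to -1.19, unadjusted p = 0.000276, adjusted p = 0.845 by edgeR).

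The 16 genes called by DESeq2 included ERF2 and KIN1. For these 16, DESeq2's adjusted p lay between 3.9e-05 and 0.0456 and edgeR's between 0.155 and 0.845. The sign of the interaction was the same under all 22 alternatives for all 16 genes. The alternatives use the same libraries from which the genes were chosen by a small DESeq2 p. That choice favours a shared sign, which is therefore no independent support. Over the 21 alternatives other than DESeq2, the adjusted p lay between 0.0619 and 1. By edgeR's test of hypoxia, 3 of the 16 rose in med25-1 (against 1.88% of all tested genes) and 3 fell (against 3.40%). In wild type 12 rose (against 3.05%) and 0 fell (against 3.43%). Genes chosen for a negative interaction tend to have such a split, so it is no separate result. DESeq2 called between 3 and 45 genes when each library was left out in turn, and the split by direction moved as well: without med25-1 control replicate 2, 20 of its 45 calls were positive, and without med25-1 hypoxia replicate 1, 6 of 32 were. Without med25-1 hypoxia replicate 3 it called 42, of which 15 were among the 16.

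AT5G41900, an alpha/beta hydrolase family member with the smallest p of all genes, had 0.758, 1.27 and 0.791 CPM in med25-1 hypoxia and 0.925, 1.16 and 0.650 CPM in med25-1 control libraries, against 34.7, 26.5 and 30.9 CPM in wild-type hypoxia and 5.13, 4.64 and 4.15 CPM in wild-type control libraries. The med25-1 groups overlapped, and wild-type hypoxia libraries were above all others. The response was 0.13 in med25-1 and 2.73 in wild type, an interaction of -2.60 (SE 0.35, -3.37 to -1.83). CYP86A2, a cytochrome P450 of cutin synthesis, had 30.5, 26.8 and 17.1 CPM in med25-1 hypoxia and 43.7, 34.4 and 41.2 CPM in med25-1 control libraries, against 131, 147 and 150 CPM in wild-type hypoxia and 90.4, 44.0 and 50.4 CPM in wild-type control libraries. Hypoxia libraries were thus below control libraries in med25-1 and above them in wild type, an interaction of -1.88 (-2.69 to -1.08). AT5G47330, another alpha/beta hydrolase family member, had -4.01 (-5.91 to -2.11), and AT2G47485, an uncharacterized protein, -2.36 (-3.54 to -1.17).

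Another group of these genes was already higher in med25-1 under control conditions. AT2G25510, an uncharacterized protein, had 1917, 2330 and 3332 CPM in med25-1 hypoxia and 992, 1421 and 974 CPM in med25-1 control libraries, against 412, 518 and 550 CPM in wild-type hypoxia and 76.5, 72 and 90.4 CPM in wild-type control libraries. Every med25-1 library was above every wild-type library, and hypoxia was above control in both lines, with responses of 1.16 in med25-1 and 2.63 in wild type and an interaction of -1.47 (-2.17 to -0.77). AT5G42530 had 755, 821 and 933 CPM in med25-1 hypoxia and 509, 951 and 375 CPM in med25-1 control libraries, against 391, 380 and 378 CPM in wild-type hypoxia and 67.8, 88.9 and 100 CPM in wild-type control libraries, and -1.71 (-2.57 to -0.85). GRP3S, a glycine-rich protein, had -1.32 (-1.97 to -0.67), AT1G73480, an alpha/beta hydrolase family member, -1.64 (-2.31 to -0.97), AT1G78070, a WD40 repeat protein, -1.42 (-1.98 to -0.85), and AT3G56880, a VQ motif protein, -1.01, all with med25-1 control libraries above every wild-type control library. The control groups overlapped for AT3G05640, a protein phosphatase 2C family member (-1.62), and AT1G75490, a DREB-type factor (-1.39).

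CESA5, a cellulose synthase subunit of primary walls, was the 1 gene called by DESeq2 with a positive interaction. It had 47.5, 46.1 and 48.2 CPM in med25-1 hypoxia and 33.7, 38.7 and 32.7 CPM in med25-1 control libraries, against 53.6, 57.2 and 58.4 CPM in wild-type hypoxia and 64.4, 61.7 and 68.5 CPM in wild-type control libraries. Hypoxia libraries were all above control libraries in med25-1 and all below them in wild type. The interaction was 0.63 (0.31 to 0.96, unadjusted p = 0.00115). In the cell wall and growth list as a whole, the median interaction of 35 tested genes was 0.46, with 0 below and 2 above zero at the unadjusted threshold. Those 2 were 5.71% of the list, against 2.15% of all tested genes above zero. Without med25-1 hypoxia replicate 3 the median was 0.70, with 7 above zero at that threshold. Of all tested genes, 482 were above zero at it without that library, against 391 with all 12 libraries.

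**Figure D3:**
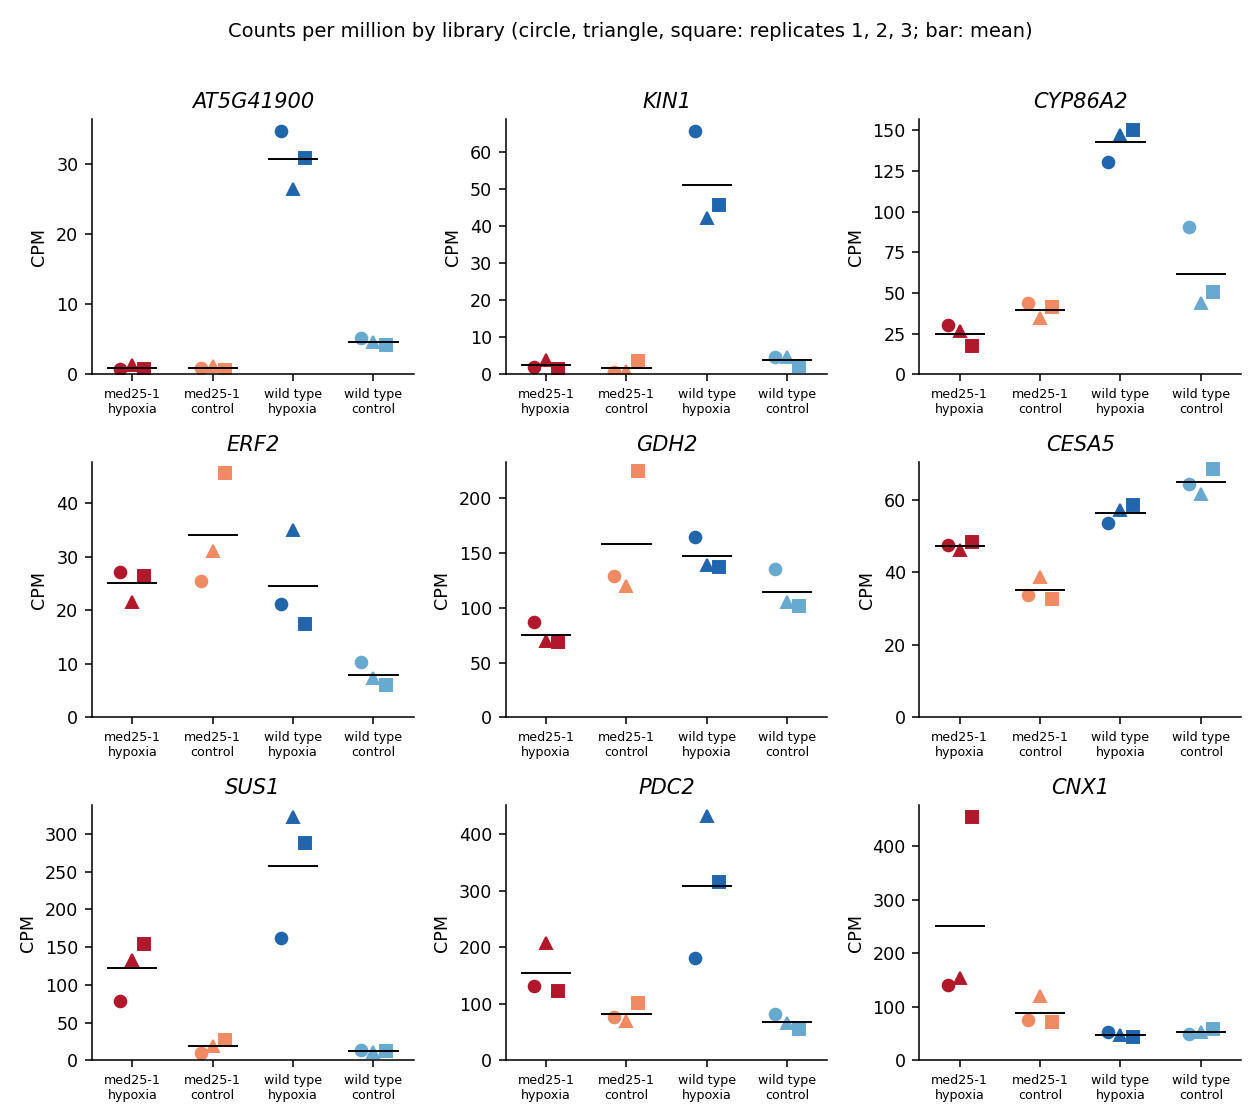
CPM in each library for 9 genes with an unadjusted interaction p under 0.05, with the 4 groups side by side and a bar at each group mean (n = 3). The AT5G41900 and KIN1 panels show a high wild-type hypoxia group only, the ERF2 panel a low wild-type control group only, and the CNX1 panel 1 library, med25-1 hypoxia replicate 3, at 456 CPM.

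Sugar starvation genes, among them enzymes of amino acid breakdown, had 6 of 25 tested members below and 1 above zero at the unadjusted threshold. These were 24% and 4% of the list, against 2.85% and 2.15% of all tested genes. The median was -0.39. Of the 25, 7 fell under hypoxia in med25-1 (against 3.40% of all tested genes) and 2 in wild type (against 3.43%), and 0 rose in either line. GDH2, a glutamate dehydrogenase subunit and a gene called by DESeq2, had 87.5, 69.3 and 69.2 CPM in med25-1 hypoxia and 129, 120 and 225 CPM in med25-1 control libraries, against 165, 140 and 137 CPM in wild-type hypoxia and 135, 105 and 102 CPM in wild-type control libraries. The med25-1 hypoxia libraries were below all others, and the interaction was -1.44 (-2.13 to -0.74, unadjusted p = 0.000714, adjusted p = 0.845 by edgeR). IVD and MCCA, enzymes of leucine breakdown, had -0.83 (-1.43 to -0.23) and -0.80 (-1.42 to -0.18). BZIP11, a growth-restraining factor whose translation sucrose represses, went the other way with 1.08 (0.09 to 2.07).

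Chaperones of the endoplasmic reticulum had a median interaction of 1.23 over 12 tested genes, all 12 of them positive, against 9306 of all 18212 genes. At the unadjusted threshold 0 members were below and 7 (58.3%) above zero, against 2.85% and 2.15% of all tested genes. CNX1, the lectin chaperone calnexin, had 141, 155 and 456 CPM in med25-1 hypoxia and 75.5, 121 and 71.6 CPM in med25-1 control libraries, against 52.2, 47.7 and 43.1 CPM in wild-type hypoxia and 49.0, 52.3 and 58.6 CPM in wild-type control libraries. Its interaction was 1.65 (0.49 to 2.81, unadjusted p = 0.00930, adjusted p = 0.929 by edgeR). BIP2, the luminal HSP70, had 118, 140 and 464 CPM in med25-1 hypoxia libraries, against at most 28.6 CPM in wild-type hypoxia libraries, and 1.61 (0.10 to 3.13). Med25-1 hypoxia replicate 3 was the highest library in both. Without it the median of the list was 0.49, below those of the cell wall and ribosome biogenesis lists, and CNX1 had 0.89 and BIP2 0.72. At the unadjusted threshold 2 members were then above zero, as were 482 of all tested genes, against 391 with all 12 libraries. The part of that library in the result was not tested beyond these values.

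The medians of heat shock and salicylate genes turned sign without that library, as did those of the mitochondrial (-0.025 without it), photosynthesis (0.10), flavonoid (0.12), ethylene (-0.11) and Mediator (-0.12) lists. Of 18 tested heat shock genes, 1 (5.56%) was below and 3 (16.7%) above zero at the unadjusted threshold, against 2.85% and 2.15% of all tested genes. Their median of 0.47 became -0.03 without med25-1 hypoxia replicate 3. HSP101, a disaggregase needed for heat tolerance, had 17.4, 27.7 and 70.4 CPM in med25-1 hypoxia and 5.55, 15.9 and 5.6 CPM in med25-1 control libraries, against 4.27, 4.81 and 5.79 CPM in wild-type hypoxia and 4.76, 6.30 and 6.01 CPM in wild-type control libraries. The wild-type groups overlapped, and the interaction was 2.28 (0.72 to 3.85), or 1.53 without that library. Of 21 tested salicylate genes, 0 passed in either direction. Their median interaction was 0.30, or 0.55 with genes without reads in a group at their floor, and it was -0.52 without med25-1 hypoxia replicate 3. SAG101, a partner of the immune regulator EDS1 and the member with the smallest p, had 0.80 (-0.07 to 1.67).

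In the median of each list by library, salicylate genes stood at 2.16, 2.17 and 3.90 in med25-1 hypoxia and 0.86, 2.48 and 0.25 in med25-1 control libraries, on a log2 CPM scale centred on each gene's mean over the 12 libraries. In wild type they stood at -1.32, -1.45 and -1.54 under hypoxia and -2.21, -2.34 and -2.15 under control conditions. The lines did not overlap, and the range over the 3 libraries of each med25-1 group was wider than in either wild-type group. Core hypoxia genes lay close together in all groups, at 0.92, 0.96 and 0.99 in med25-1 hypoxia against 1.09, 1.37 and 1.21 in wild-type hypoxia libraries, and at -0.84, -0.88 and -0.93 in med25-1 control against -1.06, -1.06 and -1.16 in wild-type control libraries. For the core list the distance between hypoxia and control was thus shorter in med25-1 at both ends.

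**Figure D4:**
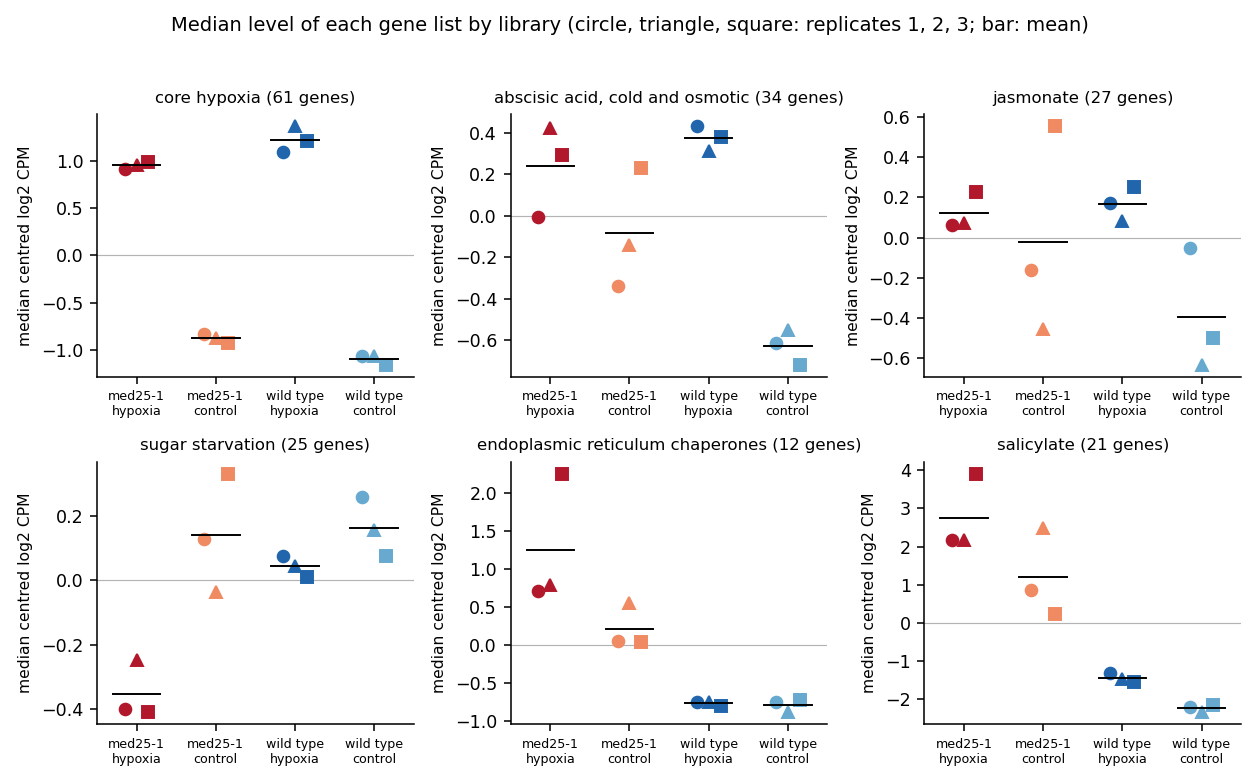
Median level of 6 gene lists in each library, as log2 CPM (plus 0.5) centred on each gene's mean over the 12 libraries, with a bar at each group mean (n = 3). Core hypoxia genes separate by treatment in both lines, abscisic acid genes are lowest in the 3 wild-type control libraries, and med25-1 hypoxia replicate 3 is the highest library for endoplasmic reticulum chaperones and salicylate genes.

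The other lists had medians closer to that of all genes or few members at the unadjusted threshold. Over all tested genes, 2.85% were below and 2.15% above zero at that threshold. Early wound and defence genes had 4 below and 0 above zero of 30 tested, with a median of -0.07, and WRKY11, a defence regulator, had -0.68 (-1.10 to -0.27). Circadian genes had 3 below and 0 above zero of 23, with a median of -0.25, and FKF1, a blue-light receptor of the photoperiod pathway, had -1.21 (-2.08 to -0.35). Mitochondrial and oxidative stress genes had 1 below and 1 above zero of 19 (median 0.19), auxin response genes 1 below and 0 above of 20 (median 0.11, ARF19 -0.47), and flowering genes 0 below and 1 above of 12 (median 0.02). That flowering gene, the repressor MAF4, had 8.47, 5.95 and 9.62 CPM in med25-1 hypoxia and 5.03, 5.84 and 4.60 CPM in med25-1 control libraries, against at most 0.0829 CPM in wild-type hypoxia and 0.35 CPM in wild-type control libraries, so its interaction of 2.16 (0.69 to 3.64) rests on few wild-type reads.

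Ribosome biogenesis genes had a median of 0.39, with 18 of 19 positive, against 9306 of all 18212 tested genes. BRX1-1, an assembly factor of the large subunit, had 0.64 (0.06 to 1.23). At the unadjusted threshold 0 members were below and 2 (10.5%) above zero, against 2.85% and 2.15% of all tested genes. Without med25-1 hypoxia replicate 3 the median was 0.52, with 7 above zero at that threshold. Of all tested genes, 482 were above zero at it without that library, against 391 with all 12 libraries. Photosynthesis genes had 0 members past it among 28 (median -0.14), and the interval lay within 2-fold for 22 of them. Light and shade genes had 0 of 11 (median -0.08) and iron genes 0 of 12 (median -0.09). Flavonoid genes had 0 below and 1 above zero of 5 (median -0.13), UGT78D1, a flavonol rhamnosyltransferase, with 0.94 (0.25 to 1.64). Of the tissue markers, 0 root and 0 seed genes and 1 floral gene, PI, had enough reads, and PI had -0.14 (-1.52 to 1.23).

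**Figure D5:**
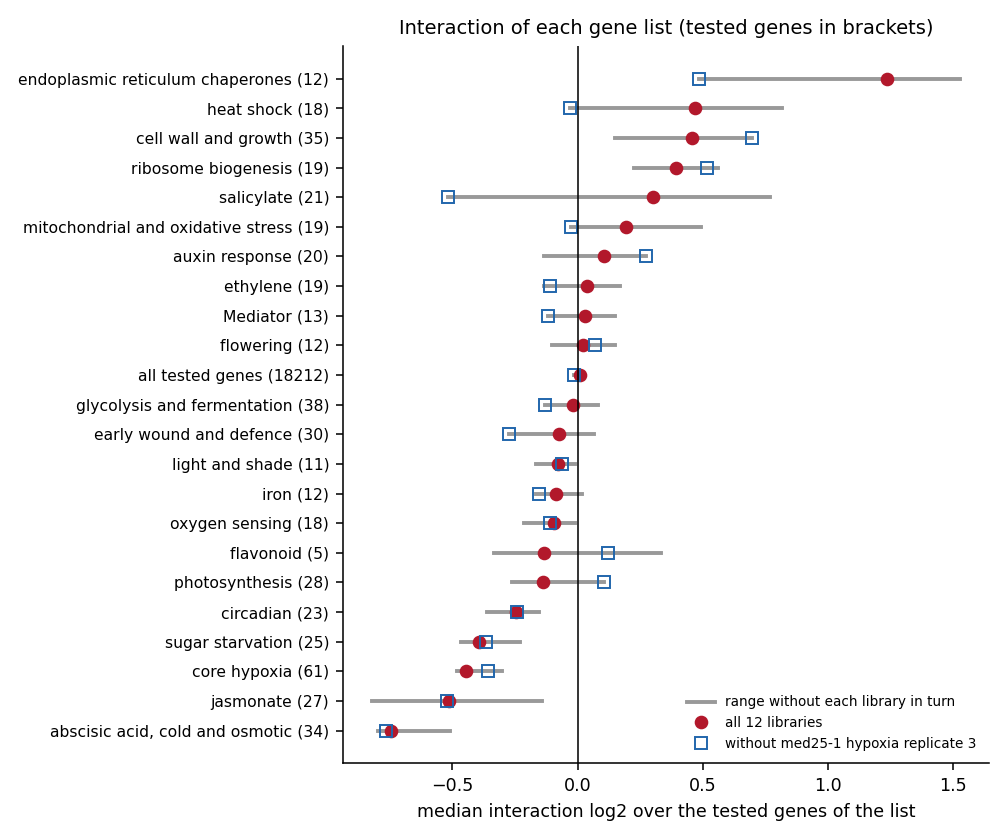
Median interaction log2 of each list with at least 5 tested genes, for all 12 libraries (filled circle), without med25-1 hypoxia replicate 3 (open square) and as the range over fits that each leave out 1 library (line). The core hypoxia, oxygen sensing, sugar starvation, abscisic acid, jasmonate, circadian and light and shade lists stay below zero over the whole range, the endoplasmic reticulum chaperone, ribosome biogenesis and cell wall lists stay above it, and every other list plotted crosses zero.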

How the data were processed

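The unit analysed was unique gene reads, whole-number counts per gene that the authors deposited for all 12 libraries, per the file headers; exon, intron and total gene read counts from the same deposited table served as alternatives and for MED25. The reads are placed on TAIR10, per the submitters' processing notes, while no source names the mapping tool, the counting tool or the counting strand, so antisense, overlapping and near-identical genes are uncertain. Of 293 columns of the table, 51 were used. The other 241 columns of values were not used. Counts were tested with edgeR 4.0.16 (R 4.3.3): filterByExpr, TMM factors, 1 mean per group over all 12 libraries, a quasi-likelihood test of the interaction, two-sided, with Benjamini-Hochberg adjustment over 18212 genes. The printed standard error is the log2 value over the root of F, and 95% intervals are unadjusted. CPM used TMM library sizes. Alternatives were DESeq2 1.42.0, voom with sample weights in limma 3.58.1, other scaling, filters and read types, a replicate block and each library left out. The scripts were tested on simulated data. There the edgeR test recovered 11% of 100 genes given a 2-fold interaction and 75% of 100 given a 4-fold one, with 3 false calls. Most 2-fold interactions were thus missed. No 2 replicates were as alike as counting error alone would make them. List medians with a floor set a group without reads at 3 reads and left out genes without reads in more than 1 group. The 95% intervals take in the spread between replicates, while the floor of 3 reads covers counting error only.

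Members and the 26 gene lists were chosen with earlier results of these data known. Members of a list share the same 12 libraries, so their counts are not independent. Named genes were 14 fixed genes of the hypoxia pathway and MED25, the 12 largest called genes in each direction (edgeR called none), and for each list its called members or the one with the smallest p. List members at an unadjusted p under 0.05, and the genes called by DESeq2, were named after their values were seen. Promoters of 250 bases were read from RefSeq TAIR10.1 for 32893 genes whose start and end were the same as in the table.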

Additional observations from a re-analysis of the deposited data

Results flagged for a closer look

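The responses of the lines differed by a test of the difference itself for 16 genes in DESeq2's interaction test, against 0 in edgeR's, and the genes are described above with the values of each library.

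Intron reads, which were not compared between responses on their own, took a mean of 9.01% of MED25 reads over the 6 med25-1 libraries, above the wild-type range of 0.457% to 1.88%.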

How the results depend on the processing

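The count of genes past an adjusted p of 0.05 was 0 in edgeR and in every alternative but DESeq2, which called 16, and 2 of the genes named by rule (GDH2 and ERF2) against 0 by edgeR. Genes at an unadjusted p under 0.05 numbered 910, with 2087 under voom and 524 to 1663 with each library left out (lowest without med25-1 control replicate 3, highest without med25-1 hypoxia replicate 2). DESeq2's calls ranged from 3 (without wild-type control replicate 2) to 45 (without med25-1 control replicate 2), alternatives chosen after seeing the data. Signs turned for PI under voom (0.31) and unique exon reads (0.48). With each library left out, PI ran from -0.61 to 0.080, LBD41 from -0.24 to 0.087 and RAP2.2 from -0.36 to 0.16. With the replicate number as a block, 0 genes were called (smallest adjusted p 0.438) and 862 had an unadjusted p under 0.05. The numbers are not used as pairs: of 18 correlations of same-numbered libraries over 16495 genes (-0.36 to 0.56), 6 were over 0.1. Those 6 include all 3 between med25-1 hypoxia and wild-type hypoxia (0.56, 0.15 and 0.24), but the interaction needs all 4 groups, and of the other 5 pairs of groups 0 had all 3 over 0.1. The causes of these shifts were not tested. Depth limits genes with few control reads most: 241 tested genes had 3 reads or fewer in a group.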

Other observations

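LTP3, a lipid transfer protein of the epidermis chosen after its values were seen, had 1, 6 and 1 reads in med25-1 hypoxia and 3, 1 and 26 reads in med25-1 control libraries, against 66, 37 and 87 reads in wild-type hypoxia and 8, 7 and 8 reads in wild-type control libraries. Its interaction was -4.59 (-7.03 to -2.14, unadjusted p = 0.00150, adjusted p = 0.845 by edgeR), and -2.54 at its smallest with a library left out. The wild-type hypoxia libraries were above all others.

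BBX29, a B-box zinc finger protein also chosen after its values were seen, had 36.0, 25.2 and 25.3 CPM in med25-1 hypoxia and 4.62, 5.91 and 7.86 CPM in med25-1 control libraries, against 20.8, 16.2 and 17.3 CPM in wild-type hypoxia and 0.966, 1.93 and 1.22 CPM in wild-type control libraries. Every med25-1 library was above every wild-type library of the same condition, and the interaction was -1.51 (-2.31 to -0.72).

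AGP15, an arabinogalactan protein also chosen after its values were seen, had 61.1, 58.0 and 145 CPM in med25-1 hypoxia and 67.1, 77.5 and 67 CPM in med25-1 control libraries. Wild-type libraries had 40.4, 37.6 and 34.2 CPM under hypoxia and 101, 86.8 and 90.1 CPM under control conditions. The wild-type groups did not overlap, hypoxia being lower, and the interaction was 1.62 (0.75 to 2.48). The med25-1 groups overlapped only through the hypoxia library at 145 CPM, replicate 3. The other med25-1 hypoxia libraries were below every med25-1 control library, and the part of replicate 3 was not tested.

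ARD3, a dioxygenase of methionine salvage that is counted among the core hypoxia genes, had 2195, 3795 and 7050 reads in med25-1 hypoxia and 191, 520 and 34 reads in med25-1 control libraries, against 32, 1 and 4 reads in wild-type hypoxia and 0, 0 and 0 reads in wild-type control libraries. With no wild-type control read, no interaction is given.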
